A study of Saccharomyces cerevisiae with 8 samples.

Results

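The inositol and phospholipid synthesis genes described here are 10 genes of the budding yeast Saccharomyces cerevisiae, namely INO1, INO2, INO4, OPI1, ITR1, CHO1, CHO2, OPI3, PSD1 and CDS1. They were chosen by name, as the genes driven by the activators Ino2 and Ino4 together with their regulators, and their probes were found by systematic (ORF) name in the scanner files. Each of the 10 had 1 probe on 2 spots, out of 6227 genes with a probe, and all 10 were among the 5816 genes tested. RNA was measured on 1-colour arrays after cultures had grown for 3 h at 30 °C with shaking at 130 rpm in 120 ml of the rich medium YPD. The groups were 4 arrays of cultures with 40 g/l isopropanol (2-propanol) and 4 arrays of cultures without it. Every culture was strain BY4743, a diploid laboratory strain that lacks HIS3, LEU2 and URA3 on both chromosome copies and is heterozygous for deletions of LYS2 and MET15. The series title asks for genes with a part in isopropanol tolerance, and the comparison is of treated with untreated cultures.

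In yeast, phosphatidic acid is turned into CDP-diacylglycerol, the shared precursor of phosphatidylinositol and phosphatidylserine. Phosphatidylserine is decarboxylated to phosphatidylethanolamine, which is methylated stepwise to phosphatidylcholine. The Ino2/Ino4 dimer drives many of these genes when inositol is scarce, whereas the repressor Opi1 enters the nucleus and holds them low when inositol is plentiful.

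Levels are log2 signals set against the 75th percentile of signal on the same array, which was 2260 ± 306 intensity units on isopropanol arrays and 1568 ± 172 on control arrays (SD, n = 4 each). A level can be compared between arrays for the same gene, but not between genes. No label says that the arrays of a group came from separate cultures, so each p-value here reflects array-to-array spread alone, and that spread may be technical. Slide 1 held the 4 isopropanol arrays and slide 2 the 4 control arrays, and for every result below an effect of the slide and one of isopropanol cannot be told apart. The replicate number is also the position on the slide, and control replicate 3 had a scan time of its own. Signals of URA3 and LEU2, genes absent from the strain, were well above background on both spots on 0 arrays. Over all genes the median log2 change was 0.11, and it depended on signal, with medians of 0.54 in the dimmest 10% of genes and -0.28 in the brightest 10%. Scaled on 6 spike-in RNAs instead, the median of all genes moved up by 1.16, or by 0.75 without isopropanol replicate 1, and every change below would move up with it. An array measures the RNA of a whole culture, so fewer cells with a transcript and less of it per cell cannot be told apart.

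The phosphatidylcholine gene OPI3 rose 3.64-fold with isopropanol, the activator genes INO2 and INO4 rose 2.03-fold and 1.39-fold, and the inositol synthesis gene INO1 rose 1.64-fold. CHO1, PSD1 and OPI1 fell by 0.21, 0.17 and 0.13 on the log2 scale, and CDS1, CHO2 and ITR1 did not pass the test. Of the 10 genes 4 were higher and 3 lower at an adjusted p under 0.05 (limma, Benjamini-Hochberg over 5816 genes), where 48.1% of all genes were higher and 29.7% lower. Calls in either direction numbered 7 of 10, against 77.8% of all genes. These shares lie near those of all genes, so the count says nothing particular about the 10. Their median log2 change was -0.04. Isopropanol arrays lay wholly above control arrays for 4 of the 10 genes (45.9% of all genes) and wholly below for 2 (27.4%), so that the groups did not overlap for 6 (73.3%). Of the 10 genes 2, OPI3 and INO2, rose at least 2-fold, against 7.5% of all genes. None fell that far, against 115 of the 5816 genes tested, and in either direction 9.47% of all genes passed 2-fold. INO2 lay close to this cutoff. It came below it without isopropanol replicate 4 (log2 0.96) or control replicate 4 (0.97), and after median centring (0.86) or quantile normalization (0.51). Normexp background correction also put INO2 below the cutoff (0.13, or 0.56 without control replicates 2 and 3). It stayed above with median signal minus local background (1.11) and on the spike-in scale (2.17). On the spike-in scale all 10 genes were higher, as were 4543 of the 5816 genes tested. The falls thus turned into rises (0.94 to 1.03, or 0.55 to 0.62 without isopropanol replicate 1).

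**Figure D1:**
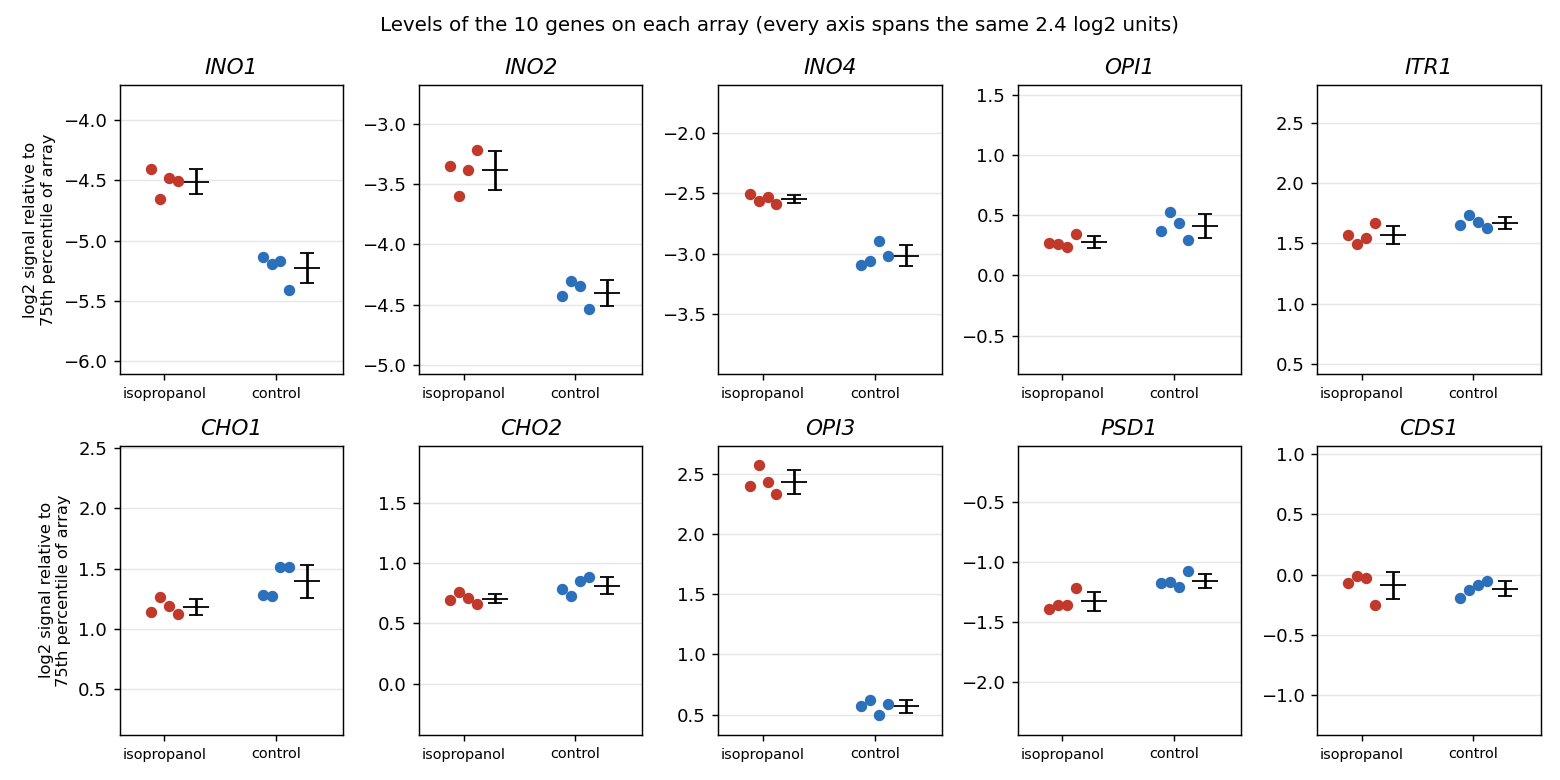
Level of each of the 10 genes on each array, as log2 signal relative to the array's 75th percentile, with isopropanol arrays in red on the left and control arrays in blue on the right, and mean ± SD (n = 4) in black. The groups stand well apart for OPI3, INO2, INO1 and INO4, and touch or overlap for the other 6 genes, all of which are higher with isopropanol on the spike-in scale.

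The activators and the repressor come first. INO2 encodes the subunit of the dimer that activates transcription. On isopropanol replicates 1 to 4 the INO2 level was -3.35, -3.60, -3.38 and -3.22, against -4.43, -4.30, -4.35 and -4.54 on control replicates 1 to 4. The lowest isopropanol array thus lay 0.70 above the highest control array. The INO2 change was 1.02 (log2, SE 0.08; limma adjusted p = 1.29e-06). Genes of like signal also tended to be higher: over the 582 genes nearest to INO2 in mean signal, 10% of those tested, the median change was 0.45, and 18.0% of them had a larger change than INO2.

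INO4 encodes the partner of Ino2 in the dimer. The INO4 level was -2.50, -2.57, -2.53 and -2.58 with isopropanol, against -3.10, -3.06, -2.89 and -3.02 in controls. The 4 isopropanol arrays lay close together and above every control array. The change of INO4 was 0.47 (SE 0.05; limma adjusted p = 1.05e-05), where the 582 genes of like signal had a median of 0.26. INO4 moved less than INO2, and this gap is tested among the pairs of genes.

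OPI1 encodes the repressor that binds phosphatidic acid at the endoplasmic reticulum. Its level was 0.27, 0.26, 0.23 and 0.35 with isopropanol and 0.37, 0.53, 0.43 and 0.29 in controls, so the groups overlapped. OPI1 was lower by a fitted -0.13 (SE 0.05; limma adjusted p = 0.0476), at the edge of the threshold. This call was lost without isopropanol replicate 1, 2 or 3 or control replicate 1, 2 or 3, with changes of -0.14 to -0.09 and adjusted p of 0.0582 to 0.130. It was lost as well after quantile normalization (-0.072, adjusted p = 0.234), with normexp background correction (-0.17, adjusted p = 0.0621) and with the submitters' own log2 values (adjusted p = 0.0559), and the direction turned on the spike-in scale (1.03).

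INO1 and ITR1 cover the supply of inositol. INO1 encodes inositol-3-phosphate synthase, which makes inositol from glucose 6-phosphate. Its level was -4.41, -4.65, -4.48 and -4.51 with isopropanol, against -5.14, -5.19, -5.17 and -5.41 in controls. The groups were 0.48 apart and the change was 0.71 (SE 0.07; limma adjusted p = 6.57e-06). INO1 was dim in both groups, at 79.3 to 114 intensity units on isopropanol arrays and 30.9 to 47.7 on control arrays, though well above background on all 8 arrays. Among the 582 genes of like signal the median change was 0.50, and 37.8% of them changed by more than INO1 did.

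The rises of INO1, INO2 and INO4 depended on how dim signals were corrected. With normexp background correction INO1 was lower by a fitted -0.44 (adjusted p = 0.365), and INO2 and INO4 came to 0.13 and 0.033 (adjusted p = 0.775 and 0.886). The normexp fit put the background at -240 intensity units on control replicate 2 and at -50.5 on control replicate 3, against -12.3 to -5.99 on the other 6 arrays, and thereby added signal to dim genes on those control arrays. Normexp also added an offset of 50 units on every array. The part of either in the smaller changes was not tested. Without control replicates 2 and 3 the normexp changes were 0.083 for INO1 (adjusted p = 0.405), 0.56 for INO2 (0.00380) and 0.28 for INO4 (0.00794). Plain median signal minus local background gave 0.65, 1.11 and 0.38, with all 3 passing. After quantile normalization the changes were 0.17, 0.51 and 0.16, again with all 3 passing.

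ITR1 encodes the main inositol transporter of the plasma membrane. Its level was 1.57, 1.49, 1.54 and 1.66 with isopropanol and 1.65, 1.74, 1.67 and 1.62 in controls, and isopropanol replicate 4 lay inside the control range. The ITR1 change was -0.10 (SE 0.05; limma adjusted p = 0.0699), which turned to 0.021 after quantile normalization and to 1.05 on the spike-in scale. It passed without isopropanol replicate 4 (-0.14, adjusted p = 0.0148) and after median centring (-0.26, adjusted p = 0.000417). Its paralog ITR2, the minor transporter, was 0.50 ± 0.14 with isopropanol and 0.77 ± 0.08 in controls (SD, n = 4 each). ITR2 fell by 0.27 (limma adjusted p = 0.00655), a call that quantile normalization ended (-0.17, adjusted p = 0.0607) and the spike-in scale turned (0.89).

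**Figure D2:**
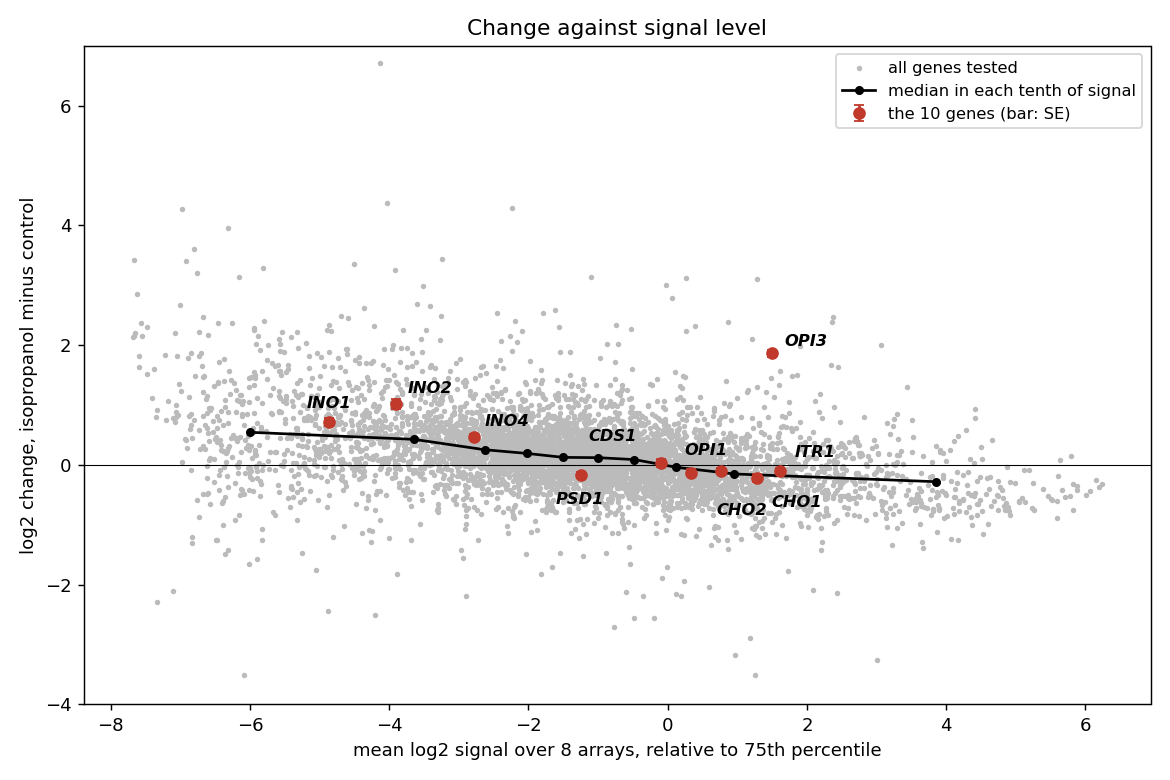
Log2 change (isopropanol minus control) against mean log2 signal for the 5816 genes tested in grey, the 10 genes in red with SE bars, and in black the median of each of 10 bins of signal, which runs from 0.54 to -0.28. OPI3 stands far above genes of like signal, INO2 stands 0.57 above their median, and of the remaining 8 PSD1 lies farthest from it, at -0.32; on the spike-in scale all changes move up.

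The route from phosphatidic acid to phosphatidylcholine starts with CDS1, which encodes CDP-diacylglycerol synthase. Its level was -0.07, -0.01, -0.02 and -0.25 with isopropanol and -0.20, -0.13, -0.09 and -0.06 in controls, so the groups overlapped. The CDS1 change was 0.030 (SE 0.06; limma adjusted p = 0.656). Its sign turned after median centring (-0.13) and with normexp (-0.059), and on the spike-in scale it passed as higher (1.19). It moved to 0.084 without isopropanol replicate 4, which had the lowest value.

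CHO1 encodes phosphatidylserine synthase, which joins serine to CDP-diacylglycerol. Its level was 1.14, 1.27, 1.19 and 1.12 with isopropanol, against 1.28, 1.27, 1.51 and 1.52 in controls. Every isopropanol array lay below every control array, but the nearest values were 0.0044 apart. CHO1 fell by 0.21 (SE 0.07; limma adjusted p = 0.0144), and the 582 genes of like signal had a median of -0.15. The call was lost after quantile normalization (-0.067, adjusted p = 0.394) and with normexp (-0.15, adjusted p = 0.168), and the direction turned on the spike-in scale (0.94).

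PSD1 encodes the mitochondrial phosphatidylserine decarboxylase, which makes phosphatidylethanolamine. Its level was -1.39, -1.35, -1.35 and -1.21 with isopropanol and -1.18, -1.17, -1.21 and -1.08 in controls. Here too the groups did not overlap, by 0.0045, since isopropanol replicate 4 lay next to control replicate 3. PSD1 fell by 0.17 (SE 0.05; limma adjusted p = 0.0103), whereas the 582 genes of like signal had a median of 0.15 and 21.3% of them fell. With median signal minus local background the change was -0.0052 (adjusted p = 0.945), with normexp -0.10 (adjusted p = 0.200), and on the spike-in scale it turned to 0.99. PSD2, the decarboxylase gene of the Golgi and endosome route, had -1.30 ± 0.12 with isopropanol and -1.86 ± 0.05 in controls (SD, n = 4 each), and rose 1.48-fold (limma adjusted p = 1.05e-05).

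CHO2 encodes the methyltransferase for the first methylation of phosphatidylethanolamine. Its level was 0.70, 0.76, 0.71 and 0.66 with isopropanol and 0.79, 0.73, 0.85 and 0.89 in controls, and the groups overlapped through control replicate 2. The change of CHO2 was -0.11 (SE 0.05; limma adjusted p = 0.0548), equal to the median of -0.11 among genes of like signal. It passed without isopropanol replicate 2 (-0.12, adjusted p = 0.0477), without control replicate 2 (-0.14, adjusted p = 0.0219) and after median centring (-0.27, adjusted p = 0.000423), and turned to 1.05 on the spike-in scale.

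OPI3 encodes the methyltransferase that carries out the remaining methylations to phosphatidylcholine. Its level was 2.39, 2.57, 2.43 and 2.33 with isopropanol, against 0.57, 0.62, 0.50 and 0.59 in controls. The groups stood 1.71 apart, against SDs of 0.10 (isopropanol) and 0.05 (control). In unscaled intensity OPI3 ran from 9060 to 14528 on isopropanol arrays and from 1968 to 2505 on control arrays. The OPI3 change was 1.86 (SE 0.06; limma adjusted p = 1.29e-09), and 99 of the 5816 genes had a larger one. Genes of like signal had a median of -0.18, and 0.687% of those 582 genes rose more. OPI3 passed as higher under every alternative run, with changes between 1.70 (median centring) and 3.02 (spike-in scale).

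Changes within pairs of genes were compared next, because the difference between 2 genes on the same array does not depend on the level to which the array is scaled. For 10 pairs the within-array log2 difference was set between groups with an exact two-sided permutation test over arrays, whose smallest possible p is 0.0286, adjusted over the 10 pairs. In 8 of the 10 pairs the arrays of the groups did not overlap, each with an exact permutation p of 0.0286 and an adjusted p of 0.0357. The pairs were chosen with earlier results of these data known, and 73.3% of single genes did not overlap either, so this count describes the 10 pairs and no more.

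The largest gap lay between the successive methyltransferase genes. The OPI3 minus CHO2 difference was 1.73 ± 0.06 on isopropanol arrays and -0.24 ± 0.11 on control arrays (SD, n = 4 each). It thus moved by 1.97 (95% interval 1.81 to 2.12), a 3.91-fold shift of the ratio in favour of OPI3. PSD2 moved up against PSD1 by 0.73 (0.59 to 0.87), so the decarboxylase genes changed unequally. INO2 moved up against its repressor gene OPI1 by 1.15 (0.98 to 1.32). INO4 lagged behind INO2 by -0.55 (-0.80 to -0.29), and ITR1 behind INO1 by -0.82 (-0.99 to -0.64). Pair differences still carry the dependence of change on signal. Median changes among genes of like signal were 0.50 for INO1, -0.18 for ITR1, 0.45 for INO2, 0.26 for INO4 and -0.07 for OPI1. For OPI3 and CHO2 they were -0.18 and -0.11. The part of signal level in these gaps was not tested.

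A further 3 pairs concerned the branches next to the members. CHO1 moved down against CDS1, the step before it, by -0.24 (-0.39 to -0.10). PAH1, for the phosphatidate phosphatase that competes with Cds1 for phosphatidic acid, moved up against CDS1 by 0.36 (0.11 to 0.61). PCT1, which activates phosphocholine with CTP in the choline route to phosphatidylcholine, moved up against CHO2, of the methylation route, by 0.80 (0.58 to 1.02). Genes of like signal had median changes of -0.15 for CHO1, -0.02 for CDS1, -0.04 for PAH1, 0.14 for PCT1 and -0.11 for CHO2. Here too the part of signal level was not tested.

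In the other 2 pairs no unequal change was found. PSD1 and CHO1 differed in change by 0.045, with an interval of -0.17 to 0.26 (exact permutation p = 0.629, adjusted 0.629), and ITR2 and ITR1 by -0.16, with an interval of -0.38 to 0.059 (exact permutation p = 0.114, adjusted 0.127). These intervals leave room for gaps of up to 0.26 and 0.38. With quantile normalization or normexp no pair passed, at adjusted p from 0.0571 and 0.0714 upward. The test could not pass a pair by itself, however large its gap, because the adjustment needs several pairs at the smallest possible p. OPI3 against CHO2 and PSD2 against PSD1 shared the lowest adjusted p under both settings. Their not passing therefore does not show that the gaps were lost. OPI3 against CHO2 came to 1.98 with quantile normalization and 1.97 with normexp, and PSD2 against PSD1 to 0.71 and 0.53. The pairs with a dim gene shrank: INO2 against OPI1 came to 0.58 and 0.29, INO4 against INO2 to -0.34 and -0.094, and ITR1 against INO1 to -0.15 and, with the sign turned, 0.38. CHO1 against CDS1 came to -0.080 and -0.089.

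**Figure D3:**
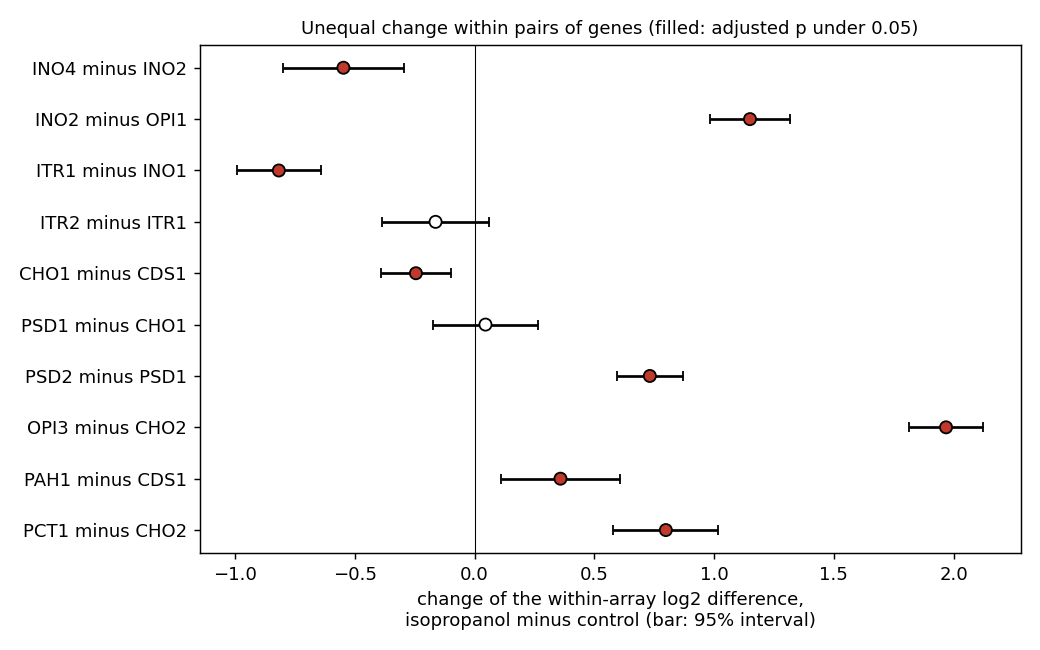
Change of the within-array log2 difference of each of 10 pairs (isopropanol minus control), with 95% intervals, filled where the adjusted permutation p is under 0.05. OPI3 minus CHO2 lies farthest from 0 at 1.97, and PSD1 minus CHO1 and ITR2 minus ITR1 have intervals that include 0. ITR1 minus INO1 turns positive with normexp, and PSD1 minus CHO1 turns negative with quantile normalization.

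Further genes listed for phospholipid metabolism, 82 in 7 lists, were all measured and give the surroundings of the 10. Their counts include SFH1, which was drawn by symbol and is no lipid gene, as given with its list below. Of the 82 genes 50 rose and 13 fell (limma, adjusted p under 0.05), with a median of 0.23, against 0.11 for all genes tested. That is 61.0% higher and 15.9% lower, where all genes tested had 48.1% higher and 29.7% lower. Those shares belong beside the count of each list as reported, and other settings moved them. Of all 5816 genes 2049 rose and 2235 fell after quantile normalization, 2009 and 2447 after median centring, and 1061 and 1395 with normexp. Of the 82, 31 rose after quantile normalization and 23 with normexp, instead of 50. Instead of 13, 21 fell after median centring and 0 on the spike-in scale, where 19 of all genes fell.

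The Kennedy pathway makes phosphatidylcholine and phosphatidylethanolamine from choline and ethanolamine. Of its 7 genes 2 rose, 1 fell and 4 did not pass (median 0.05). Choline kinase CKI1 had -1.64 ± 0.08 with isopropanol and -2.47 ± 0.08 in controls (SD, n = 4 each), a 1.77-fold rise. PCT1, the next enzyme, had -0.80 ± 0.11 with isopropanol and -1.50 ± 0.06 in controls, a 1.62-fold rise. The choline transporter gene HNM1 fell by 0.46, to 1.24 ± 0.10 with isopropanol against 1.70 ± 0.05 in controls, and turned to 0.69 on the spike-in scale. Limma adjusted p was 2.17e-05 for HNM1, 2.87e-07 for CKI1 and 2.30e-06 for PCT1. With normexp CKI1 came to 0.46 on the log2 scale (adjusted p = 0.0459), against 0.83 as given.

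Of the 15 genes from the acylation of glycerol phosphate to diacylglycerol, including CTP supply, 10 rose and 1 fell (median 0.20). Of all genes 48.1% rose and 29.7% fell. After median centring 6 of the 15 rose and 4 fell (2009 and 2447 of all 5816 genes). With normexp 5 rose and 1 fell (1061 and 1395 of all genes). NEM1, the catalytic subunit of the phosphatase that activates Pah1, had -1.37 ± 0.11 with isopropanol and -2.59 ± 0.05 in controls and rose 2.34-fold. Its log2 change, 1.23 as given, ran from 0.83, which is below 2-fold, to 2.38 over the alternatives. PAH1 itself rose 1.31-fold (limma adjusted p = 0.000121), a log2 change of 0.39 that came to 0.23 after median centring. The CTP synthase genes moved apart, with URA8 2.04-fold higher, at 1.33 ± 0.05 with isopropanol and 0.30 ± 0.07 in controls. Over the alternatives the log2 change of URA8 ran from 0.87, below 2-fold, to 2.18. URA7, its paralog, fell by 0.79 (1.73-fold lower with isopropanol; limma adjusted p = 2.26e-07), though it came to 0.36 on the spike-in scale and to -0.025 there without isopropanol replicate 1. Probes of such paralogs can share signal, which was not tested. APP1, for a phosphatidate phosphatase of actin patches, rose 1.59-fold but came to -0.062 with normexp.

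Of 5 genes of inositol recycling and phosphatidylinositol synthesis 3 rose and 2 fell (median 0.24), against 48.1% and 29.7% of all genes. After quantile normalization 1 rose and 0 fell (2049 and 2235 of all 5816 genes). INM1, an inositol monophosphatase that follows Ino1 in the pathway, had -0.30 ± 0.06 with isopropanol and -1.02 ± 0.03 in controls and rose 1.65-fold (limma adjusted p = 1.21e-07). Its paralog INM2 rose 1.18-fold, a call lost after quantile normalization and median centring (adjusted p = 0.139 and 0.155). PIS1, phosphatidylinositol synthase, fell by 0.17 (limma adjusted p = 0.00877), a call lost after quantile normalization (-0.036, adjusted p = 0.542) and with normexp (-0.13, adjusted p = 0.113), and turned to 0.98 on the spike-in scale. GIT1, the glycerophosphoinositol transporter, rose 1.72-fold from a dim level, and came to -0.53 with normexp.

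Phosphoinositide and inositol phosphate enzymes rose in 15 of 19 cases and fell in 1 (median 0.25), where 48.1% of all genes rose and 29.7% fell. After median centring 8 were higher and 3 lower, after quantile normalization 7 and 5, and with normexp 3 and 1. In that order all 5816 genes gave 2009 higher and 2447 lower, 2049 and 2235, and 1061 and 1395. Phospholipase C gene PLC1 rose 1.69-fold, at 0.64 ± 0.04 with isopropanol and -0.12 ± 0.09 in controls. The inositol polyphosphate 5-phosphatase gene INP51 rose 1.71-fold, the lipid phosphatase gene FIG4 1.55-fold and the inositol polyphosphate kinase gene ARG82 1.46-fold. With normexp these last 3 did not pass, at adjusted p of 0.209, 0.157 and 0.184.

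Cardiolipin is made from CDP-diacylglycerol in mitochondria, and of its 9 genes 5 rose and 2 fell (median 0.21), against 48.1% and 29.7% of all genes. After quantile normalization 3 rose and 2 fell (2049 and 2235 of all 5816 genes). With normexp 3 rose and 2 fell as well (1061 and 1395 of all genes). CLD1, the phospholipase that removes an acyl chain from cardiolipin, had -2.10 ± 0.04 with isopropanol and -3.86 ± 0.14 in controls and rose 3.39-fold (limma adjusted p = 4.77e-09), or by 0.84 on the log2 scale with normexp (adjusted p = 0.0299), against 1.76 as given. TAM41, the mitochondrial CDP-diacylglycerol synthase gene, rose 1.41-fold, where CDS1 had a log2 change of 0.030. GEP4, phosphatidylglycerophosphate phosphatase, fell by 0.75, and UPS2, for a mitochondrial phospholipid transfer protein, fell by 0.48. On the spike-in scale GEP4 and UPS2 turned to 0.41 and 0.67.

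Of 16 genes of phospholipid turnover and transport 11 rose and 3 fell (median 0.35), where 48.1% of all genes rose and 29.7% fell. GDE1, which splits glycerophosphocholine, had 0.90 ± 0.01 with isopropanol and -0.06 ± 0.04 in controls and rose 1.95-fold. The phospholipase B genes PLB3 and PLB1 rose 1.92-fold and 1.75-fold. Limma adjusted p for GDE1, PLB3 and PLB1 lay between 6.71e-09 and 3.16e-07. The list drew SFH1 (YLR321C) by symbol and counts it among its 16 genes and the 3 that fell. That gene encodes a subunit of the chromatin remodeller RSC and no lipid transfer protein, and it fell by 0.74, unevenly, with -2.10 and -2.14 on isopropanol replicates 1 and 4 and -1.44 and -1.46 on replicates 2 and 3. It turned to 0.42 on the spike-in scale.

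Of 11 regulators beyond the members 4 rose and 3 fell (median 0.12), against 48.1% and 29.7% of all genes. After median centring 2 rose and 4 fell (2009 and 2447 of all 5816 genes). With normexp 0 rose and 3 fell (1061 and 1395 of all genes). SCS2, the membrane protein that anchors Opi1 at the endoplasmic reticulum, fell by 0.56 (1.47-fold lower with isopropanol). Its paralog SCS22 rose 1.51-fold, a call lost after quantile normalization (adjusted p = 0.0557) and turned with normexp (-0.028). HAC1, the transcription factor of the unfolded protein response, fell by 0.70, and its single level says nothing of splicing. ZAP1, the zinc-responsive activator that also acts on phospholipid genes, rose 1.64-fold and came to 0.13 with normexp. Limma adjusted p for these 4 lay between 1.22e-06 and 3.68e-05. On the spike-in scale SCS2 and HAC1 turned to 0.60 and 0.46.

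**Figure D4:**
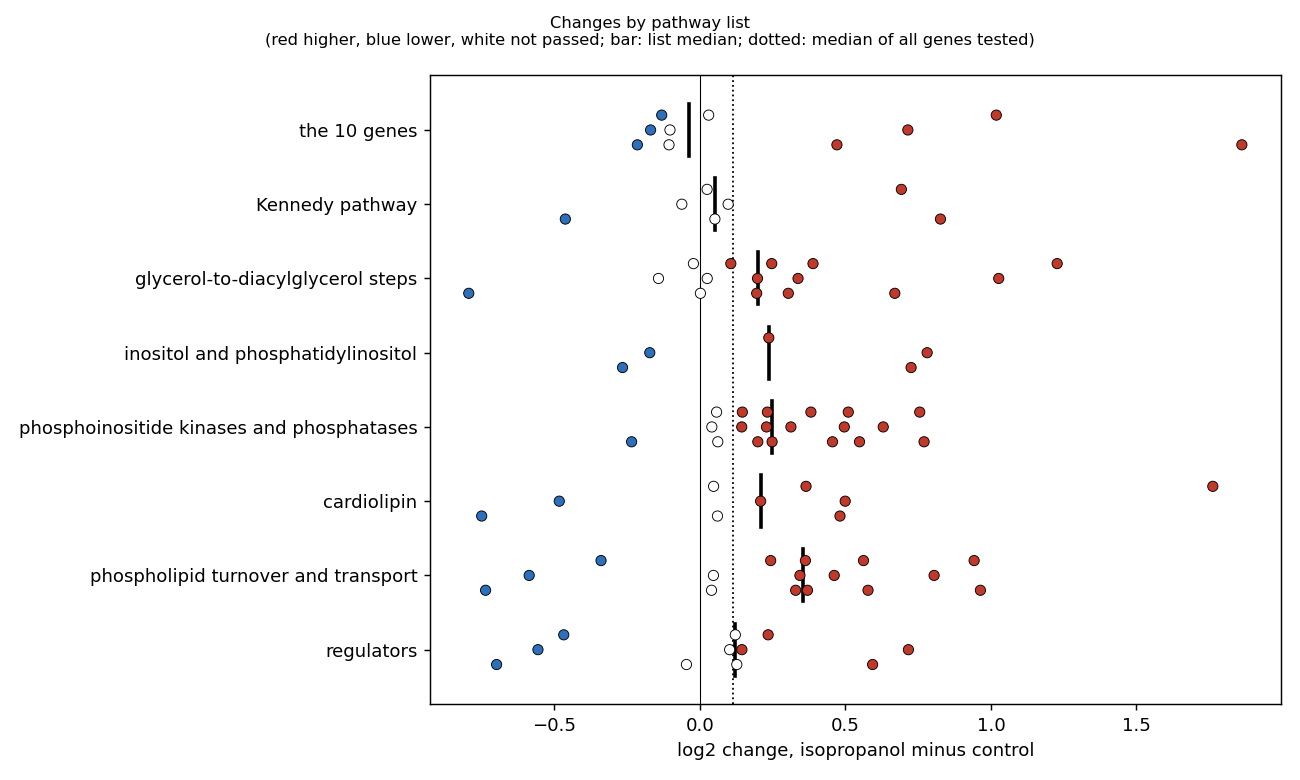
Log2 change (isopropanol minus control) of the 10 genes and of 82 genes in 7 other lists, red where higher and blue where lower at adjusted p under 0.05, white where not passed, with list medians as bars and the median of all genes, 0.11, as a dotted line. List medians run from -0.04 (the 10 genes) to 0.35 (turnover and transport). On the spike-in scale all points move right by about 1.16 and none remains called as lower.

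**Figure D5:**
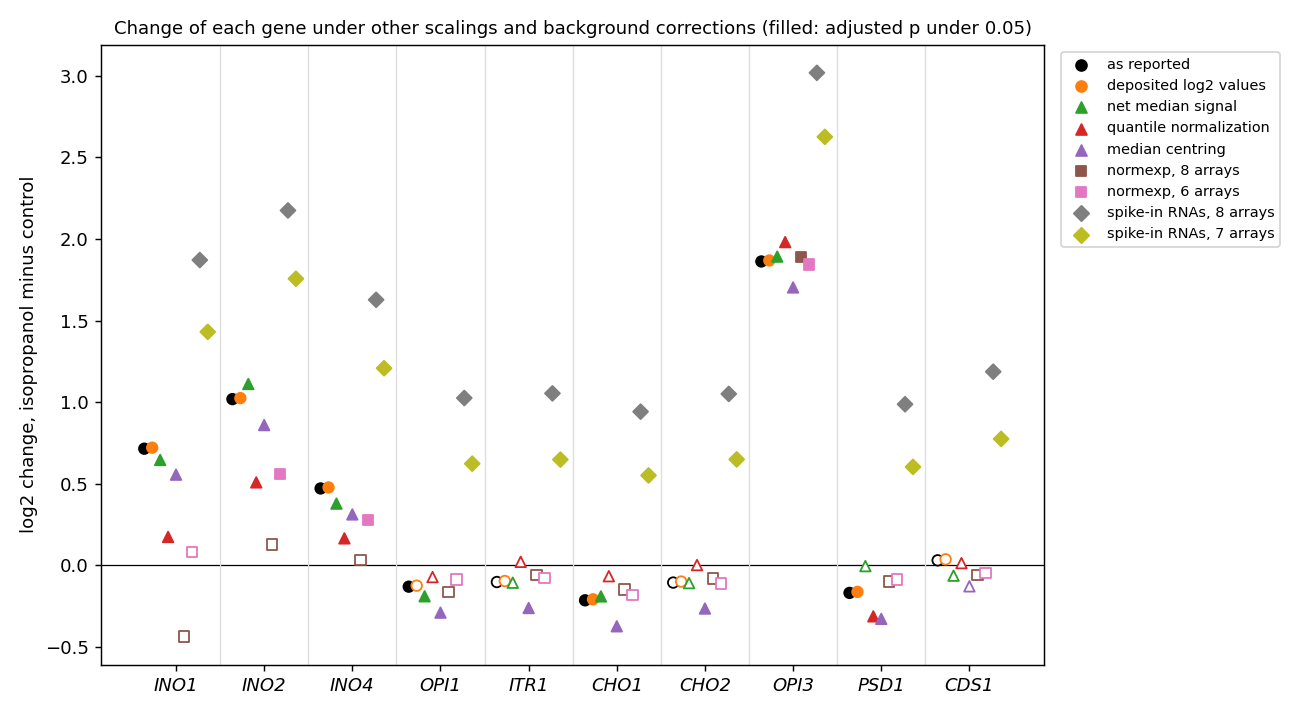
Log2 change of each of the 10 genes under 9 settings of scaling and background correction, filled where adjusted p is under 0.05. OPI3 lies between 1.70 and 3.02 in all 9. INO1, INO2 and INO4 lose their calls with normexp on 8 arrays, where INO1 comes to -0.44, and both spike-in settings place all 10 genes above 0.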

How the data were processed

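Cyanine 3 was the only dye on these Agilent arrays of total RNA, per the labels. Per the file headers, the authors ran Feature Extraction 9.5.3.1 on the scans (version 9 in the submitters' processing notes), and the files hold a processed signal, an intensity that is background-subtracted and detrended within the array, beside raw median signal and local background intensity. The deposited series matrix holds log2 values. Against the scanner values these were relative to each array's 75th percentile, with column medians of -1.52 to -1.32, rank correlations of 0.997 to 1.00 over 6256 probes, the same direction and no gene centring. Their further processing is not given in the sources used here. Other columns are flags deposited by the authors. A dose in mg/l in the descriptions of treated samples was set aside for the g/l of their other labels.

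Samples were grouped by title. Processed signal was taken to log2 and scaled to the 75th percentile, flagged outlier spots (0 to 21 per array) and control spots were left out, 0 spots were saturated, and spots of a probe were averaged. A probe was tested where all arrays of 1 or both groups had it well above background, and the brightest stood for a gene, with limma 3.58.1 in R 4.3.3 and Benjamini-Hochberg adjustment over 5816 genes. The number of arrays limits the precision. Symbols came from the RefSeq gene table (assembly R64) by locus tag. No coordinates are given, since the files use an older build. Pairs were tested with scipy 1.17.1. The planned search for promoter motifs was not run, and no sequences are printed. Intervals of pair differences are 95% t intervals with a pooled SD.

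The 10 genes, the lists and the pairs were chosen with earlier results of these data known. Named genes are the 10, up to 4 per list with the largest absolute change among those that passed, the pair genes, and PIS1, ITR2 and PSD2. Alternatives were quantile normalization, median centring, spike-in scaling, normexp (offset 50, on median signal, since the files hold no mean signal), series matrix values, filters on dim probes, the mean of probes, a replicate block and each array left out. Median signal minus local background (floor 1 unit) and normexp without control replicates 2 and 3 were chosen after seeing the data. No label pairs the samples by replicate number, and the main fit used no pairing. Deviations of same-numbered arrays correlated at -0.16 to 0.04 over genes, which cannot show whether such arrays share an origin.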

Additional observations from a re-analysis of the deposited data

Results flagged for a closer look

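Among 94 groups of 4 values checked for a sample far from the others, 4 had one, where chance gives about 1 in 20. The spike-in RNAs lay at -2.62 relative to the 75th percentile on isopropanol replicate 1, against -1.10 to -0.88 on the other isopropanol arrays, which sets the difference between both spike-in scalings. The 75th percentile of signal was 1802 intensity units on isopropanol replicate 4, against 2384 to 2449 on the others of its group. It was 1312 on control replicate 4, against 1625 to 1678 on the others. The level of GPT2, a glycerol phosphate acyltransferase gene, was -0.74 on isopropanol replicate 4 and -0.94 to -0.92 on the other isopropanol arrays.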

How the results depend on the processing

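OPI3 kept its direction and call under all alternatives. With normexp INO1 came to -0.44, INO2 to 0.13, INO4 to 0.033, OPI1 to -0.17, CHO1 to -0.15, PSD1 to -0.10, CDS1 to -0.059, APP1 to -0.062, GIT1 to -0.53, SCS22 to -0.028 and SCT1 to -0.038. Of the 10 genes 1 was then higher and 0 lower, of the 82 others 23 were higher, and 1061 of all genes were higher (2796 as reported). Pair differences came to -0.094 (INO4 minus INO2), 0.29 (INO2 minus OPI1), 0.38 (ITR1 minus INO1), -0.089 (CHO1 minus CDS1), 0.53 (PSD2 minus PSD1), 1.97 (OPI3 minus CHO2), 0.47 (PAH1 minus CDS1) and 0.67 (PCT1 minus CHO2). With normexp on 6 arrays INO1 came to 0.083, OPI1 to -0.087, CHO1 to -0.18, PSD1 to -0.087 and CDS1 to -0.047, 0 of the 10 were lower and 1823 of all genes higher. After quantile normalization OPI1 came to -0.072, ITR1 to 0.021, CHO1 to -0.067 and CHO2 to 0.0013. There 1 of the 10 was lower and 31 of the 82 higher, where 2235 of all genes were lower and 2049 higher. Pair differences were then -0.34 (INO4 minus INO2), 0.58 (INO2 minus OPI1), -0.15 (ITR1 minus INO1), -0.080 (CHO1 minus CDS1), -0.25 (PSD1 minus CHO1), 0.71 (PSD2 minus PSD1), 1.98 (OPI3 minus CHO2), 0.41 (PAH1 minus CDS1) and 0.56 (PCT1 minus CHO2).

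On the spike-in scale values were 1.03 for OPI1, 1.05 for ITR1, 0.94 for CHO1, 1.05 for CHO2, 0.99 for PSD1, 1.19 for CDS1, 0.69 for HNM1, 0.36 for URA7, 0.89 for ITR2, 0.41 for GEP4, 0.67 for UPS2, 0.42 for SFH1, 0.46 for HAC1, 0.60 for SCS2 and 0.98 for PIS1. All 10 genes were then higher, 0 of the 82 lower, and 4543 of all genes higher with 19 lower. Without isopropanol replicate 1 the values were 0.62 for OPI1, 0.65 for ITR1, 0.55 for CHO1, 0.65 for CHO2, 0.60 for PSD1, 0.77 for CDS1, 0.33 for HNM1, -0.025 for URA7, 0.55 for ITR2, 0.015 for GEP4, 0.25 for UPS2, 0.12 for SFH1, 0.076 for HAC1, 0.20 for SCS2 and 0.56 for PIS1, with 10 and 0 of the 10, 0 of the 82 lower, and 4886 and 79 of all genes. After median centring ITR1 came to -0.26, CHO2 to -0.27 and CDS1 to -0.13. There 5 of the 10 and 21 of the 82 were lower, as were 2447 of all genes. With median signal minus local background PSD1 came to -0.0052, CDS1 to -0.064 and CHO1 minus CDS1 to -0.13. OPI1 kept -0.13 but not its call with the series matrix values, with no filter on dim probes and with the replicate block. The block ended the calls of OPI1 and SCT1 among the genes named and left 2721 genes higher and 1676 lower, against 2796 and 1729 without it.

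With each array left out, changes ran from -0.17 to -0.091 for OPI1, -0.14 to -0.078 for ITR1, -0.14 to -0.082 for CHO2, 0.65 to 0.76 for INO1, 0.96 to 1.09 for INO2, 0.44 to 0.51 for INO4, 1.82 to 1.90 for OPI3, -0.26 to -0.17 for CHO1 and -0.21 to -0.14 for PSD1, and 2 to 4 of the 10 genes were lower. Pairs were not run with the block, where 4 pairs allow no p under 0.125, and have no test with an array left out, where none under 0.0571 is possible. The cause was not tested for any of these shifts. Higher calls made up 61.8% of all calls as reported, 47.8% after quantile normalization, 45.1% after median centring, 43.2% with normexp and 99.6% on the spike-in scale.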

Other observations

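Of 5 acyltransferase genes that add fatty acids to glycerol phosphate or lysophosphatidic acid, 4 rose by small amounts, where 48.1% of all genes rose. LOA1 had a log2 change of -0.14 (limma adjusted p = 0.0977), which did not pass. The genes named here were picked after their values were seen. ALE1 rose by 0.30 (log2, SE 0.04), to -0.42 ± 0.04 with isopropanol against -0.73 ± 0.05 in controls (SD, n = 4 each; limma adjusted p = 7.45e-05), and passed under every alternative run, at 0.14 after median centring. GPT2 rose by 0.25, SCT1 by 0.20 and SLC1 by 0.20, but after median centring these 3 came to 0.088, 0.039 and 0.036 and did not pass. The calls of GPT2 and SCT1 were also lost after quantile normalization. Those of SCT1 and SLC1 were lost with normexp (-0.038 and 0.14) and with median signal minus local background. SPO7, for the regulatory partner of Nem1, rose by 0.34 (SE 0.04), and came to 0.048 after quantile normalization and 0.0064 with normexp, without passing.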
